A study of Mus musculus with 479 samples.

Results

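Liver of mice heterozygous for a modified Fat4 gene (Het) was compared with liver of wild-type littermates of the same line (WT). The comparison holds every liver library of the Fat4 line, taken by tissue and genotype from the labels, with 30 Het and 30 WT libraries out of 479 in the series. The series sequenced messenger RNA of heart, kidney, liver and lung in a Dchs1 and a Fat4 line of mice, and its title names the choice of mouse group size as the question. Both groups were on a C57BL/6NTac background, and the Het mice came from a line made with VelociGene technology. The labels name no allele other than that at Fat4 by which the groups differ. They give no age, sex or batch, do not say which mice shared a litter or which part of the gene was altered, and do not say whether each library is another mouse. The p-values therefore measure the spread between these libraries, which may be technical.

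Fat4 encodes a very large cadherin that binds Dchs1 on neighbouring cells. This pair orients cells within a tissue sheet (planar cell polarity), and Fat4 is thought to feed into the Hippo pathway, a brake on growth that restrains the coactivators YAP and TAZ. Liver is rich in genes that differ between the sexes, among them major urinary proteins and cytochromes P450, and the pulsed release of growth hormone, read by STAT5b, sets much of that pattern. The unfolded protein response raises chaperones of the endoplasmic reticulum, and interferons switch on antiviral genes in cells that carry their receptors.

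Library totals ran from 16098872 to 21836463 reads assigned to genes, with a median of 18766973, so that 1 CPM (reads per library total, scaled by the TMM method of edgeR) stood for at least 10 reads. All 60 libraries had hepatocyte transcripts at high level, with Alb at 26617 to 63224 TPM (transcript share scaled for gene length). Markers of the other tissues were low or at 0. Of kidney, Umod, Slc34a1 and Kap had no read in 52, 53 and 55 libraries, with Kap at 12.5 TPM at most. Of lung, Sftpc and Scgb1a1 had no read in 59 and 58 libraries, but Sftpa1 had reads in all 60, at 0.436 to 4.18 CPM. Of heart, Myh6 and Actc1 had none in 35 and 16, and Tnnt2 had reads in all 60, at up to 1.31 CPM. Every library had reads of the Y-linked genes Ddx3y, Uty, Kdm5d and Eif2s3y, with Ddx3y from 65.9 to 119 CPM. Xist stayed at or under 0.603 CPM, so by these genes all 60 libraries came from males. By correlation with the others, 6 libraries stood apart, 4 WT and 2 Het, and 3 WT libraries carried numbers apart from the run that holds the other 57. The number of calls depended on them, as given with the counts. Single libraries are named here by their order of library number within a group.

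Fat4 itself (gene identifier 329628, GRCm38.p6 chr3:38884667-39011992) stood at 1.30 to 4.11 CPM in WT libraries with a median of 2.55, and at 0.667 to 2.08 CPM in Het libraries with a median of 1.18. All 30 Het libraries lay below the WT median and 17 below the lowest WT library, so the groups overlapped in part. The Het mean was 48.8% of WT (1.28 ± 0.335 against 2.63 ± 0.720 CPM, SD, n = 30 and 30), a log2 fold change, Het minus WT, of -1.03 ± 0.0989 (SE, edgeR adjusted p = 1.98e-11). These levels rest on 1501 reads over the WT and 718 over the Het libraries. In bulk liver, fewer cells of a type and less RNA per cell cannot be told apart. Its binding partner Dchs1 had medians of 2.74 and 2.69 CPM in WT and Het, with a log2 fold change of -0.06 that did not pass (95% interval -0.27 to 0.15, edgeR adjusted p = 0.798). Per length, Fat1 was the most abundant of the family in WT liver at 5.76 TPM on average, against 0.466 for Dchs1 and 0.273 for Fat4. The log2 fold change of Fat1 was 0.06 (edgeR adjusted p = 0.634), Fat2 had no read, and Fat3 and Fjx1 were too low to test.

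Of 12484 genes tested, 454 were higher and 438 lower in Het liver at an edgeR adjusted p under 0.05, 3.64% and 3.51% of those tested and 7.15% together. With 60 libraries most calls were small, with a median absolute log2 fold change of 0.23. Of the higher genes 49 differed 1.5-fold or more and 19 differed 2-fold or more, and of the lower genes 42 and 8. No gene separated the groups entirely. In 27 called genes all 30 Het libraries lay to 1 side of the median of WT, and in 516 at least 25 did. Both counts are among called genes, which the test chose for a group difference, so they add no support to the calls. No such share was taken over all genes tested. The even split of calls, 50.9% higher, depends on the scaling: limma on TPM called 766 genes, of which 13.4% were higher, with the median of all genes at -0.05 on the log2 scale against 0.00 with edgeR. Leaving out the 6 outlying libraries raised the count to 1429.

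**Figure D1:**
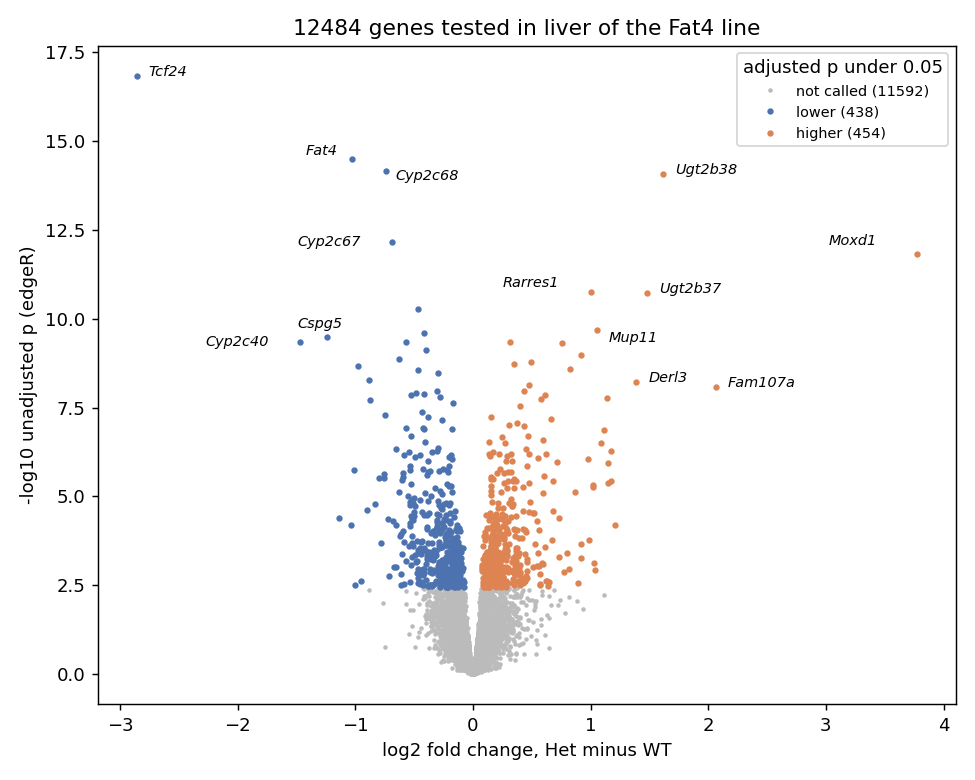
Each point is a gene, with the log2 fold change (Het minus WT, 30 libraries each) on the x axis and -log10 of the unadjusted edgeR p on the y axis, for 12484 genes. Orange marks the 454 genes called higher and blue the 438 called lower, and Tcf24, Moxd1 and Ugt2b38 lie far from the bulk.

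Tcf24, a gene for a basic helix-loop-helix transcription factor (identifier 100039596, chr1:9960163-9967981), had the smallest p. Its WT libraries ran from 0.402 to 13.9 CPM with a median of 2.93, and its Het libraries from 0.0519 to 1.29 CPM with a median of 0.481. No Het library reached the WT median, and the 2 ranges overlapped only at the low end of WT, where 11 Het libraries lay below the lowest. The log2 fold change was -2.86 ± 0.242 (edgeR adjusted p = 1.87e-13), a 7.24-fold lower level.

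Moxd1, which encodes a monooxygenase related to dopamine beta-hydroxylase and is known in mouse liver as a male-biased gene (identifier 59012, chr10:24223517-24302783), moved the other way. WT libraries held 0 to 0.804 CPM with a median of 0.0548, and 8 of them had no read. Het libraries held 0.101 to 8.88 CPM with a median of 1.11. All Het libraries exceeded the WT median and 19 exceeded the highest WT library, though the Het spread itself was wide. The log2 fold change was 3.77 ± 0.429 (95% interval 2.93 to 4.61, edgeR adjusted p = 3.15e-09), from 86 reads over the WT and 1205 over the Het libraries.

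**Figure D2:**
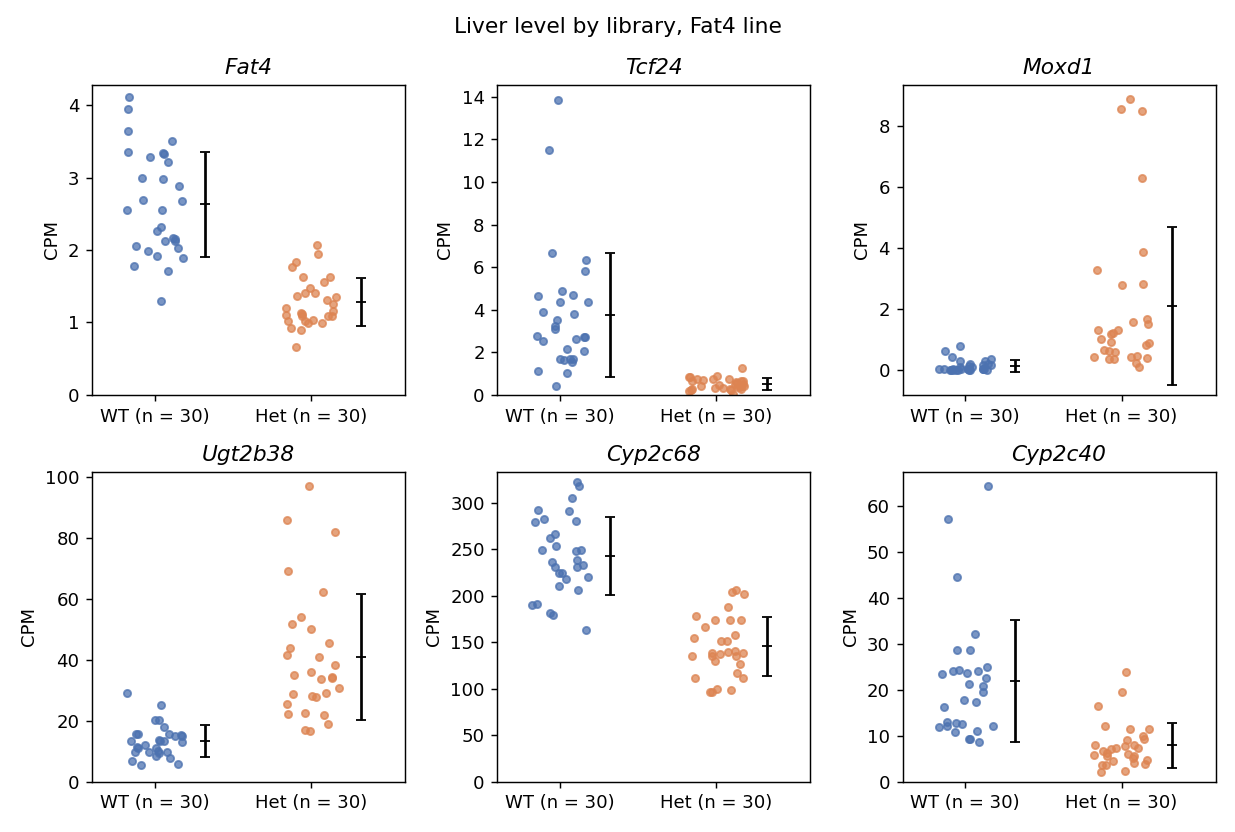
Each point is a liver library, with its level in CPM on the y axis and genotype on the x axis (30 WT in blue, 30 Het in orange), and bars give the mean ± SD. Fat4, Tcf24, Cyp2c68 and Cyp2c40 are lower in Het and Moxd1 and Ugt2b38 higher, with some overlap of the groups in all 6 genes.

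Male-biased genes of mouse liver rose in part. Of 17 male-biased genes tested 8 rose and 0 fell, with a list median of 0.29 on the log2 scale against 0.00 for all genes (background 3.64% higher). Ugt2b38, a UDP glucuronosyltransferase that conjugates lipophilic substrates (chr5:87409939-87424203), rose from 5.62 to 29.1 CPM in WT (median 13.3) to 16.6 to 97.3 in Het (median 34.7). All 30 Het libraries lay above the WT median and 20 above the highest WT library, with a log2 fold change of 1.62 ± 0.160 (edgeR adjusted p = 2.63e-11). The neighbouring Ugt2b37 ran at 1.23 to 7.33 CPM in WT and 2.67 to 33.3 in Het, with a log2 fold change of 1.48 ± 0.181. Reads cannot be placed with certainty between such close copies, so the sum of both genes was also taken, and it stood at 301% of WT with 30 of 30 Het libraries above the WT median.

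Cyp7b1, which hydroxylates oxysterols on the alternative route of bile acid synthesis, had a WT range of 63.9 to 342 CPM (median 200) and a Het range of 200 to 543 (median 357). Each Het library exceeded the WT median, and the log2 fold change was 0.83 ± 0.119 (edgeR adjusted p = 1.40e-06). The other risers of the male-biased list were Mup20, Mup21, Cyp2d9, Cyp4a12b and the complement gene C6, between 0.29 and 0.47. Members that did not pass included Slco1a1 at -0.13, Hsd3b5 at 0.07 and Elovl3 at 0.23.

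Major urinary proteins are pheromone carriers that male liver secretes in bulk. Of 20 members tested 15 were higher and 0 lower, with a median of 0.59 (background 3.64% higher). Mup11 (chr4:60658466-60662432) ran from 58.2 to 693 CPM in WT (median 413) and from 461 to 1627 in Het (median 835), and 23 Het libraries exceeded the highest WT library. Its log2 fold change was 1.05 ± 0.139 (edgeR adjusted p = 2.58e-07). The darcin gene Mup20 rose by 0.47 ± 0.0798 from a WT median of 5436 CPM. By contrast Mup3, the most abundant single member per length in WT, stayed at -0.04 (edgeR adjusted p = 0.763). The deposited counts of Mup11 and Mup20 were not whole in any of the 60 libraries, so single members of this family of near copies are uncertain. Summed over 21 genes the family held 10608 to 29629 CPM in WT and 17091 to 36423 in Het, with 28 of 30 Het libraries above the WT median and a mean at 128% of WT.

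The female-biased list was mixed. Of 13 genes tested 3 fell, Cyp2c40, Cyp2c69 and Cyp2a4, and Fmo2 rose by 0.68 ± 0.134 (edgeR adjusted p = 0.000364), with a list median of -0.01 (background 3.51% lower, 3.64% higher). Cyp2a4 lay close to the threshold, at -1.01 in all libraries (edgeR adjusted p = 0.0457) and at -0.33 (edgeR adjusted p = 0.422) without WT library 20. Its call was lost in 23 of 60 fits that left out a library, and with DESeq2, no filter, limma on TPM and surrogate variables. The remaining members, such as Cyp3a41a at 0.06 and Cux2 at 0.18, did not pass. Among 11 genes of growth hormone signalling, Igfbp3 rose by 0.48 ± 0.106 and 10 did not pass, including Ghr at -0.22, Stat5b at -0.06 and Igf1 at 0.06.

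Of 13 Cyp2c cytochromes tested, which oxidise drugs and arachidonic acid, 6 fell, 0 rose and 7 did not pass, with a median of -0.29 (background 3.51% lower). Cyp2c68 (chr19:39688836-39741101) ran from 163 to 323 CPM in WT (median 238) and from 96.9 to 206 in Het (median 140). No Het library reached the WT median and 21 lay below the lowest WT library. Its log2 fold change was -0.74 ± 0.0725 (edgeR adjusted p = 2.63e-11).

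Cyp2c67 changed by -0.69 ± 0.0769, Cyp2c38 by -0.75 and Cyp2c69 by -0.87. Cyp2c40 had the largest fall of the family, from a WT range of 8.59 to 64.3 CPM (median 20.1) to 2.13 to 23.8 in Het (median 6.84), a log2 fold change of -1.47 ± 0.200. These genes lie close together on chromosome 19 and are alike in sequence, so Cyp2c38, Cyp2c40, Cyp2c67, Cyp2c68 and Cyp2c69 were also summed. Their sum was 59.9% of WT and lay below the WT median in 30 of 30 Het libraries. Cyp2c23 fell by 0.38, while Cyp2c29, Cyp2c37, Cyp2c50 and Cyp2c54, at -0.29 to -0.17, and Cyp2c70 at 0.02 did not pass.

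**Figure D3:**
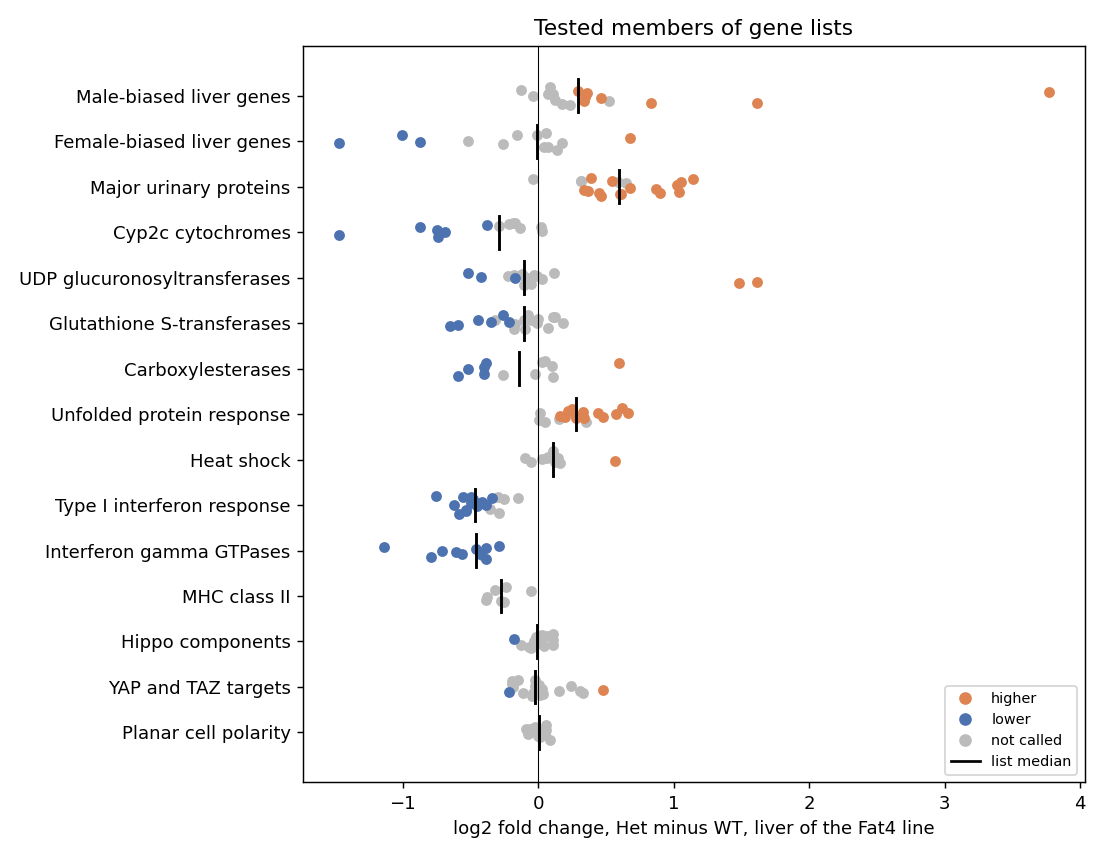
Each point is a tested member of a gene list, with its log2 fold change (Het minus WT liver) on the x axis and lists in rows, orange for higher, blue for lower and grey for not called. Black ticks give list medians, which are furthest above 0 for major urinary proteins (0.59) and furthest below for both interferon lists (-0.47 and -0.46).

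Genes of the unfolded protein response rose together. Of 18 tested 13 were higher and 0 lower, with a median of 0.28 (background 3.64% higher). The sum of the list exceeded the WT median in 30 of 30 Het libraries, at 4050 to 7180 CPM in Het against 3303 to 5585 in WT. The promoters of Hspa5 and Creld2 are shown because their 5′ flanks carry the element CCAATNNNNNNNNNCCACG, through which ATF6 is known to act (in capitals, RefSeq sequence of GRCm38.p6, plus strand for both genes, 250 bases before the start).
Hspa5, chr2:34771840-34772089: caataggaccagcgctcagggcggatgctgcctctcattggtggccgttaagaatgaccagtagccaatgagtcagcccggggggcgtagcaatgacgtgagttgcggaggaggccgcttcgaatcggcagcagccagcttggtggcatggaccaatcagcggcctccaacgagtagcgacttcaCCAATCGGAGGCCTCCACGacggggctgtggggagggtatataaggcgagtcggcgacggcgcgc
Creld2, chr15:88819396-88819645: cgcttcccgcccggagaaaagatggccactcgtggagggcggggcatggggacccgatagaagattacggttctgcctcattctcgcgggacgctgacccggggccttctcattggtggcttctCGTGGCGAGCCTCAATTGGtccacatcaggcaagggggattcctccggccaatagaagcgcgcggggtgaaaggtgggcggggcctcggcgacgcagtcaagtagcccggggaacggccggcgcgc

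In Hspa5 the element spans -65 to -47 from the start on the plus strand, and in Creld2 it spans -126 to -108 and reads on the minus strand. Searched on both strands of 32851 promoter windows of this length, the element was present in 0.113% of all windows and in 6 of 16 windows of the list (37.5%), each window from another gene and 2 list genes without one. It was found in Hspa5, Creld2, Calr, Hsp90b1 and Pdia6, which rose, and in Canx, which stood at 0.05 and did not pass. The window of Sdf2l1, which rose by 0.66, does not hold these letters. Written along the strand that carries it, with the fixed bases in capitals, it reads as follows, and Hsp90b1 holds it at 2 positions, -212 to -194 and -107 to -89.
Hspa5: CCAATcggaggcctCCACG
Creld2: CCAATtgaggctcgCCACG
Calr: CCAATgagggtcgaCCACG
Hsp90b1, first: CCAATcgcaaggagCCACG
Hsp90b1, second: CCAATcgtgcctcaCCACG
Pdia6: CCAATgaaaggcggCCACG
Canx: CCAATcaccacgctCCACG
A match describes these letters only, and no binding was measured.

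Hspa5, which encodes the chaperone BiP, had a WT range of 491 to 953 CPM (median 679) and a Het range of 669 to 1696 (median 976). In 29 of 30 Het libraries it exceeded the WT median and in 16 the highest WT library, with a log2 fold change of 0.48 ± 0.0718 (edgeR adjusted p = 3.19e-06). Creld2, a secreted factor induced by such stress, ran at 15.8 to 35.6 CPM in WT and 22.2 to 75.5 in Het, a rise of 0.61 ± 0.0942 with 30 of 30 Het libraries above the WT median. Manf, another secreted member, rose by 0.58 ± 0.0892 and the cochaperone Sdf2l1 by 0.66 ± 0.108. The lectin chaperone Calr, the isomerases Pdia3, Pdia4 and Pdia6, and Hsp90b1, Hyou1, Dnajb9 and Dnajb11 rose by 0.20 to 0.44. Xbp1 rose by 0.16 (edgeR adjusted p = 0.00813).

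The members tied to the PERK branch of the response did not pass in the main edgeR fit. Ddit3 stood at 0.01, Chac1 at 0.01, Atf4 at 0.15 (edgeR adjusted p = 0.0629) and Herpud1, which several branches reach, at 0.36 (edgeR adjusted p = 0.205). With surrogate variables 16 of 18 list members were called higher, and 15 in the fit over all 8 groups, so some of these passed there. Outside the list, Derl3, a derlin of protein degradation at the endoplasmic reticulum, rose from a WT median of 1.34 to a Het median of 4.37 CPM (log2 fold change 1.39 ± 0.206, edgeR adjusted p = 2.74e-06). Of 11 heat shock genes, which answer misfolding in the cytosol, only Hspa1b was higher, by 0.57 (9.09% of the list, background 3.64% higher). This call was lost with limma on TPM, without a filter on low counts and in 28 of 60 fits that left out a library.

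Interferon-stimulated genes were lower. In the type I interferon list 15 of 20 tested members fell and 0 rose, with a median of -0.47 (background 3.51% lower). Of 11 guanylate-binding and immunity-related GTPases, which interferon gamma induces against intracellular pathogens, 10 fell and 0 rose, with a median of -0.46. The promoter of Ifit1 is shown because the element GAAANNGAAA, through which interferon-activated factors act, lies in it 2 times, on the minus strand (in capitals, printed as the reverse complement on the plus strand, RefSeq sequence of GRCm38.p6, 250 bases before the start).
Ifit1, chr19:34640639-34640888: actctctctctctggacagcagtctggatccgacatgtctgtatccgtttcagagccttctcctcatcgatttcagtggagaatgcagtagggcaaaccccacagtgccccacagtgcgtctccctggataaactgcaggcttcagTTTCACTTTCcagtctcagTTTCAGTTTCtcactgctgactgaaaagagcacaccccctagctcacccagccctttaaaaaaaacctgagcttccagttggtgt

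Searched on both strands, with overlapping matches allowed, this element was present in 2.98% of all 32851 windows, in 7 of 14 windows of the type I list (50%, 13 genes) and in 8 of 9 windows of the GTPase list (8 genes). Written along its own strand it reads GAAAgtGAAA and GAAActGAAA in Ifit1. Both also occur in Ifit3, at -156 to -147 and -122 to -113. Irgm2 and Igtp hold GAAActGAAA, and Ddx60 holds GAAAccGAAA at 2 positions. Bst2 and Oas1a, which did not pass, hold the element too. Among windows of called type I genes it was present in 5 of 11 (45.5%). Windows of Cmpk2 and Irf7 do not hold these letters. The STAT5 palindrome TTCNNNGAA, which reads alike on both strands, was present in 7.02% of all windows and in 1 of 11 windows of the male-biased list, that of Moxd1. It was also present in 5 of 9 windows of the GTPase list, in 3 of 14 of the type I list and in 0 of 14 each of the major urinary proteins and the Cyp2c genes.

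Ifit1, which binds foreign RNA, ran at 8.05 to 53 CPM in WT (median 25.6) and 6.13 to 30.6 in Het (median 14.0). The ranges overlapped widely, yet 29 of 30 Het libraries lay below the WT median, with a log2 fold change of -0.76 ± 0.146 (edgeR adjusted p = 0.000267). Cmpk2, a mitochondrial nucleotide kinase, fell by 0.59 ± 0.106 and the regulator Irf7 by 0.50 ± 0.104. Isg15 fell by 0.62 and Rsad2 by 0.53. Oasl2, Oas1a, Oas2, Bst2 and Zbp1, between -0.35 and -0.15, did not pass.

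Among the GTPases, Irgm2 had a WT range of 63.0 to 245 CPM (median 85.9) and a Het range of 39.0 to 123 (median 66.6), a log2 fold change of -0.43 ± 0.0954, and 28 of 30 Het values under the median of WT. Irgm1 fell by 0.39 ± 0.0912 and Gbp6 by 0.79 ± 0.155. Tgtp1 was the most uneven: its highest WT library held 170 CPM, where the WT median was 9.70, and the log2 fold change was -1.14 in all libraries and -0.56 without WT library 29. Gbp10, outside the list, fell by 1.01 ± 0.193. With each library left out in turn, the type I list had 15 to 17 falls and the GTPase list 9 to 11.

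Values of immune cells stood beside these. All 7 tested genes of MHC class II were below 0, at -0.38 to -0.05, and 0 passed with edgeR or DESeq2 in the 60 libraries (3 had an unadjusted p under 0.05), while the edgeR fit over all 8 groups tested 10 and called 3 lower. Of 12 Kupffer cell and macrophage markers, Cd163 was higher and Marco lower (8.33% each, background 3.64% higher, 3.51% lower), and 10 did not pass. Their summed level was 177 to 632 CPM in WT and 135 to 316 in Het, with medians of 225 and 235. The highest WT library held 53.8 CPM of Marco, where the WT median was 3.01, and its log2 fold change of -0.95 came to -0.46 (edgeR adjusted p = 0.252) without WT library 29. Of 15 T and NK cell markers 3 could be tested and 0 passed with edgeR or DESeq2 or had an unadjusted p under 0.05, with sums of 2.95 to 10.1 CPM in WT and 2.56 to 7.09 in Het. B and plasma cell markers summed to 2.06 to 7.93 CPM in WT and 1.75 to 7.87 in Het, and Jchain was lower by 0.42. The call of Cd163 was lost with limma on TPM and in 1 of 60 fits without a library, and that of Jchain in the fit over all 8 groups. The part of these cells in the interferon result was not tested.

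Further enzymes of drug metabolism moved in a patchy way. Of 12 carboxylesterases 5 fell, all of the Ces1 group (Ces1b, Ces1c, Ces1d, Ces1f and Ces1g), and Ces2c rose, a call lost with limma on TPM (background 3.51% lower, 3.64% higher). Ces1c, which hydrolyses esters in plasma, ran at 1225 to 2043 CPM in WT (median 1667) and 813 to 1609.7 in Het (median 1212), with all Het libraries below the WT median and a log2 fold change of -0.40 ± 0.0549 (edgeR adjusted p = 5.65e-07). Glutathione S-transferases had 6 falls among 19 tested (Gsta2, Gsta4, Gstm1, Gstm3, Gstm6 and Mgst3) and 0 rises, with a median of -0.10. Gsta2 fell by 0.65 ± 0.116 and Mgst3 by 0.59 ± 0.113, while Gsta3 at -0.32 and Gstp1 at 0.11 did not pass. The count of falls moved to 3 without WT library 20, to 8 without WT library 2 and to 9 without the outlying libraries. With surrogate variables 7 glutathione S-transferases fell and 2 rose, and 6 carboxylesterases fell and 4 rose. Among the other UDP glucuronosyltransferases Ugt1a9, Ugt1a5 and Ugt3a1 fell, by 0.42, 0.52 and 0.17, and Ugt2b1, Ugt2b5 and Ugt2b36 did not pass.

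Of 15 targets of the xenobiotic receptors CAR and PXR 1 rose (6.67%) and 2 fell (13.3%) (background 3.64% higher, 3.51% lower). The riser, Cyp2b10, ran from 0.249 to 22.6 CPM in WT (median 8.72) and 0.679 to 74.4 in Het (median 16.8), with a log2 fold change of 1.21 ± 0.282. That call was lost with limma on TPM. The 2 that fell, Aldh1a1 and Gstm3, lay close to the threshold and lost their calls without a filter on low counts.

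Other genes with a small p or a large change belong to no list above. Rarres1, a retinoid-induced gene, rose from a WT range of 5.91 to 51.1 CPM (median 24.5) to 29.8 to 81.0 in Het (median 49.1), with every Het library above the WT median and a log2 fold change of 1.0 ± 0.123. Rtn4, which encodes a protein that shapes the endoplasmic reticulum, fell by 0.47 ± 0.0595, and no Het library reached the WT median. Fam107a rose by 2.07 ± 0.311, from WT levels of 0.110 to 3.72 CPM to 0.283 to 26.9 in Het.

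Smpd3, a neutral sphingomyelinase, rose by 1.17 ± 0.209 and the transcript E030018B13Rik by 1.17 ± 0.231. Cspg5, a chondroitin sulfate proteoglycan, fell by 1.24 ± 0.166 from a WT median of 1.53 to a Het median of 0.629 CPM. Gm4841 fell by 1.03, and by 0.65 without WT library 29. Saa1, an acute phase protein, had a Het range of 13.8 to 194 CPM (median 27.8) against 7.48 to 47.9 in WT (median 17.4), and rose by 1.09 ± 0.190. Serpina3n was the other riser among 20 acute phase genes (10% higher, background 3.64%), and 18 did not pass.

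Genes of the pathways in which Fat4 is placed were mostly not called. Of 12 planar cell polarity genes tested, such as Vangl1 at -0.02, Celsr1 at 0.01 and Prickle1 at -0.06, 0 passed with edgeR or DESeq2 or had an unadjusted p under 0.05, and all lay between -0.09 and 0.09. Hippo components gave 1 call among 18, the scaffold Wwc1 at -0.18, which was lost in 18 of 60 fits that left out a library and without the 6 outlying libraries. Lats1 was at 0.07, Yap1 at 0.04 and Wwtr1 (TAZ) at 0.11. Among 19 targets of YAP and TAZ, Igfbp3 rose and Nt5e fell, the latter a call lost in 3 of 60 fits that left out a library. These shares, 0 to 5.56%, lie near the background of 3.64% higher and 3.51% lower.

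Zonation and cell makeup gave few calls, where 3.64% of all genes were higher and 3.51% lower. Pericentral hepatocyte genes had 0 calls among 15 with edgeR or DESeq2 in the 60 libraries (3 with an unadjusted p under 0.05), with Glul at -0.04 and Cyp2e1 at 0.09. Other edgeR fits called 2 lower in the longest run of library numbers, without the 6 outlying libraries and over all 8 groups, 1 lower with library number as a covariate and 1 higher with surrogate variables. The periportal list had Cps1 higher (0.29, a call lost with limma on TPM) and Gls2 lower (-0.16) among 15. Markers of stellate cells (0 of 12), fibroblasts and matrix (0 of 15) and cholangiocytes (0 of 6) gave no call with edgeR or DESeq2 in the 60 libraries, with an unadjusted p under 0.05 in 0, 1 and 0 of them. Without the 6 outlying libraries 1 cholangiocyte and 1 fibroblast or matrix gene were called higher, and 1 of the latter with surrogate variables. Those of liver endothelium gave 1 of 17, Dnase1l3 at -0.18, a call lost in 35 of 60 fits that left out a library. The transferrin gene Trf fell by 0.26 ± 0.0427, at 5330 to 9571 CPM in Het against 7308 to 12554 in WT, with each Het library below the WT median. In metabolic lists 1 to 3 members passed, few genes beside the background of 3.64% higher and 3.51% lower. Igfbp1, Tat and G6pc rose among 15 genes of gluconeogenesis and insulin response (20%). Fasn and Elovl6 rose (13.3%) and Acly fell (6.67%) among 15 of fatty acid synthesis. Akr1d1 and Abcb11 fell (9.52%) and Cyp7b1 rose (4.76%) among 21 of bile acids. The calls of G6pc, Fasn and Elovl6 were lost with limma on TPM. Within 10 Mb of Fat4, 46 genes were tested, of which Pgrmc2 was lower by 0.08 ± 0.0216 and none was higher.

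The same contrast was made in the other tissues of the Fat4 line, with 30 Het and 30 WT libraries each, and in 59 libraries of liver of the Dchs1 line, whose Het mice carry a modified Dchs1 gene. Of the genes tested there, 9.21% were called higher and 7.87% lower in Fat4 kidney (17.1% together), and 0.969% and 0.628% in Fat4 heart (1.6% together). In Fat4 lung 0.11% and 0.0259% were called (0.136% together), and in Dchs1 liver 24.3% and 25.4% (49.8% together). Fat4 fell in each of the 4 tissues, by 1.03 in liver, 1.07 in kidney, 0.95 in heart and 0.98 in lung. The differences from liver, at -0.07 to 0.04, did not pass the interaction test. Fat4 was also lower in Dchs1 liver, by 0.35 ± 0.0861 (edgeR adjusted p = 0.000587), less than in Fat4 liver (difference -0.69 ± 0.131, edgeR adjusted p = 2.36e-05). Dchs1 was lower by 0.20 ± 0.0513 in Fat4 kidney (edgeR adjusted p = 0.00578), and its difference between liver and kidney did not pass. In the tests of such differences over all genes, 4.49% were called for liver against kidney, 1.93% against heart, 1.87% against lung and 23.6% against Dchs1 liver.

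Tcf24 and Moxd1 differed between Fat4 liver and the other comparisons in which they could be tested. Tcf24 stood at 0.07 in Fat4 kidney, 0.06 in lung and -0.37 in Dchs1 liver (edgeR adjusted p = 0.363), none of which passed, and was too low to test in heart. The liver effect was lower than that of Dchs1 liver by 2.50 ± 0.436 (interaction, edgeR adjusted p = 4.51e-06). Moxd1 stood at -0.07 in heart and 0.29 in lung, which did not pass, and was too low to test alone in kidney and Dchs1 liver. Its liver effect was higher than that of Dchs1 liver by 3.84 ± 0.703 (interaction, edgeR adjusted p = 1.33e-05). As Moxd1 was too low to test in Dchs1 liver alone, this difference rests on the rise in Fat4 liver. It does not show what Moxd1 does in Dchs1 liver.

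The unfolded protein response list differed between tissues. Its median was 0.01 in Fat4 kidney, where 2 of 18 rose and 3 fell (background 9.21% and 7.87%). It was -0.12 in heart, where 6 fell (background 0.628%), and -0.02 in lung, where edgeR called 0 of 18 (2 with an unadjusted p under 0.05). In 11 of 18 members the liver effect was higher than that in kidney, in 11 than that in heart and in 11 than that in lung. Over all genes 4.49%, 1.93% and 1.87% differed, in either direction. Hspa5 rose in Dchs1 liver too, by 0.44 ± 0.0936 (edgeR adjusted p = 9.33e-05), and the difference between the lines was 0.03 ± 0.119 (edgeR adjusted p = 0.898). In Dchs1 liver 7 of 18 members rose, where 24.3% of all genes did. The effect in Fat4 liver was higher in 5 members and lower in 1, where 23.6% of all genes differed between the lines.

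Male-biased genes and major urinary proteins went opposite ways in liver of the 2 lines. In Dchs1 heterozygotes 13 of 16 male-biased genes fell, with a median of -0.59, and 16 of 20 major urinary proteins fell, with a median of -0.94. Of all genes 25.4% were lower there. The difference between the lines passed in 16 of 17 and 19 of 20 members (23.6% of all genes), each with the higher effect in Fat4 liver. Moxd1, too low to test in Dchs1 liver alone, is among the 17. Of 9 male-biased genes that could be tested in Fat4 kidney 4 rose (background 9.21% higher), among them Ugt2b38 by 0.21. Cyp7b1 rose by 0.83 in Fat4 and fell by 0.49 in Dchs1 liver (difference 1.30 ± 0.232, edgeR adjusted p = 7.41e-06), and Ugt2b38 rose by 1.62 and fell by 0.52 (difference 2.12 ± 0.250, edgeR adjusted p = 7.83e-11). Cyp2c67 fell in both, by 0.69 and 0.58, with a difference that did not pass, and 9 of 13 Cyp2c genes fell in Dchs1 liver. The difference between the lines passed in 8 of 13 Cyp2c genes, with the liver effect of Fat4 higher in 4 and lower in 4, among them Cyp2c68, at -0.74 and -0.36 (difference -0.39 ± 0.116, edgeR adjusted p = 0.00813).

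Interferon genes were lower in several comparisons. In Dchs1 liver 20 of 20 type I genes and 11 of 11 GTPases fell (background 25.4% lower), and in Fat4 kidney 18 of 20 and 10 of 11 (background 7.87%). In Fat4 heart 2 of 19 and 2 of 11 fell (background 0.628%), and in lung 1 of 20 and 0 of 11 (background 0.0259%). In lung 20 of 20 type I genes and 11 of 11 GTPases had an unadjusted p under 0.05 in edgeR, and in heart 13 of 19 and 10 of 11. The share of all genes under that limit in these tissues is not given here. The list medians in heart and lung were also below 0, at -0.21 for the type I list in both tissues and at -0.38 and -0.43 for the GTPases. Few of these genes differed between liver and the other Fat4 tissues. Of 20 type I genes the liver effect was lower than that in kidney in 0, heart in 1 and lung in 2. Of 11 GTPases it was lower in 0, 1 and 0, and no gene of either list had a higher liver effect. Over all genes 4.49%, 1.93% and 1.87% differed, in either direction. For Ifit1 the difference between liver and kidney was -0.28 ± 0.180 and did not pass (edgeR adjusted p = 0.451), and that between liver and lung was -0.57 ± 0.164 (edgeR adjusted p = 0.041). The fall in liver was less deep than in Dchs1 liver in 8 of 20 type I genes and 5 of 11 GTPases, such as Irgm2 at -0.43 against -1.14. Of all genes 23.6% differed between the lines, in either direction.

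**Figure D4:**
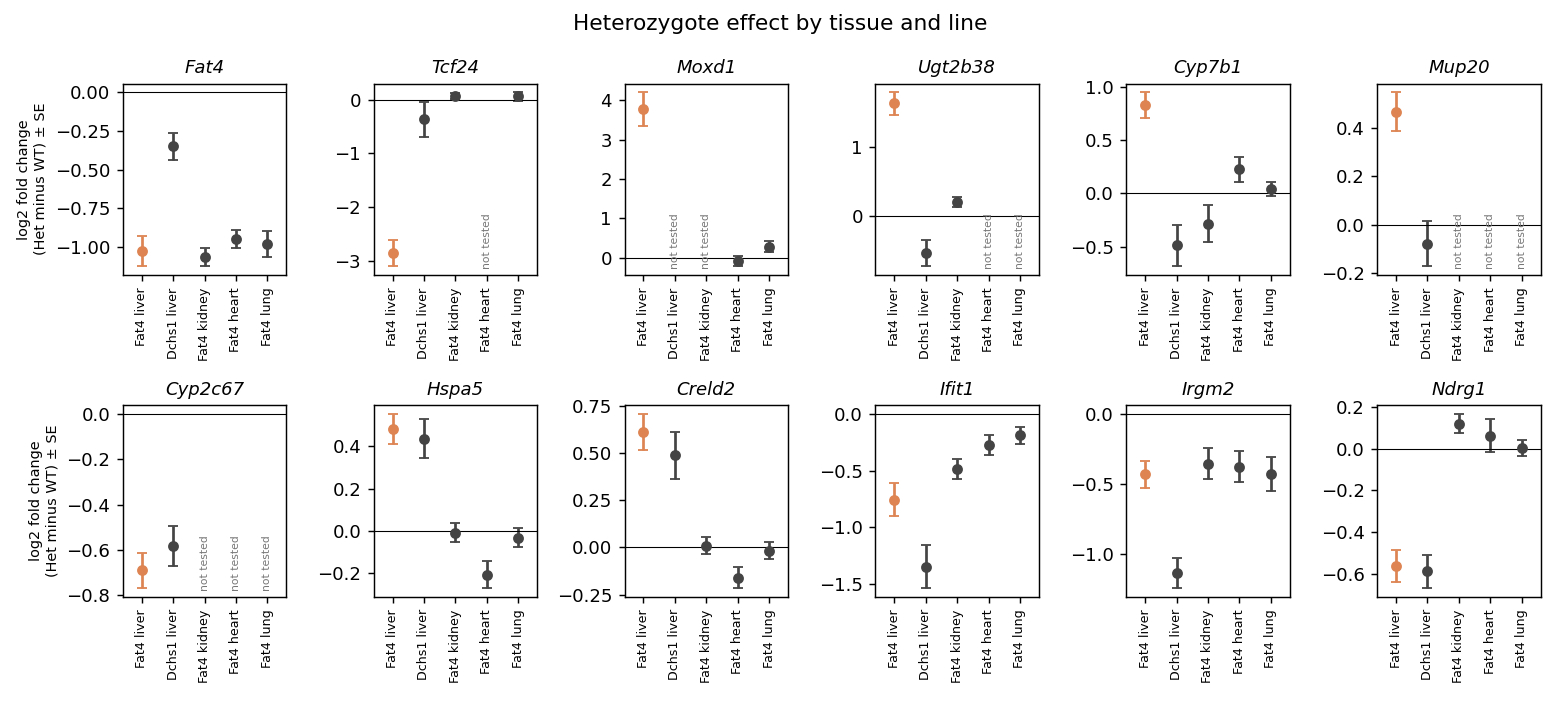
Each panel is a gene, with the log2 fold change (Het minus WT, point ± SE) on the y axis in 5 comparisons on the x axis, Fat4 liver in orange. Tcf24 (-2.86) and Moxd1 (3.77) are far from 0 in Fat4 liver, Hspa5 (0.48 and 0.44) stands above 0 in both livers, and Ifit1 lies below 0 in all 5 comparisons, with genes too low to test marked.

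Because the labels give no batch, levels were also set against library number, which is mixed between the groups but not evenly. WT libraries 1 to 6 had lower numbers than every Het library, and all 4 outlying WT libraries were among them. With number as a covariate 1024 genes were called, and the longest run alone, 27 WT and 30 Het libraries, gave 1194. Whether library number follows a batch was not tested.

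**Figure D5:**
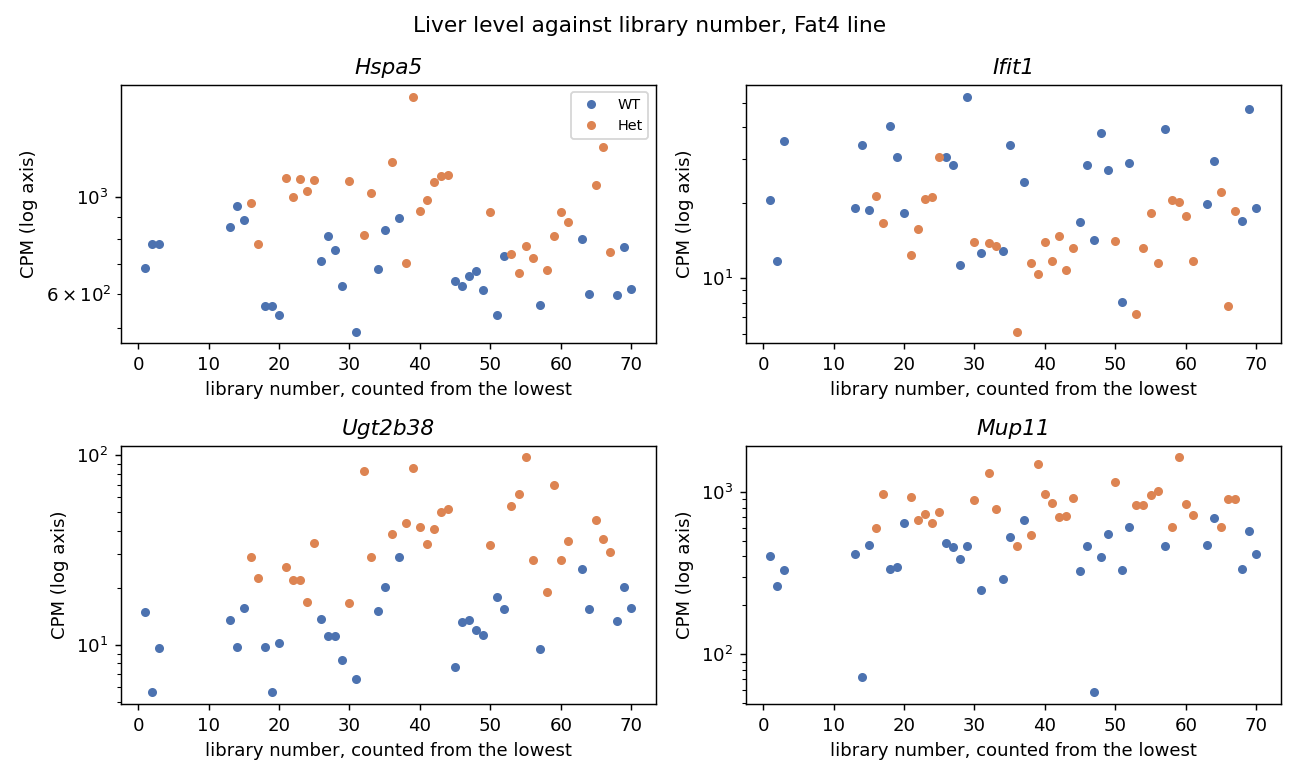
Each point is a liver library, with library number counted from the lowest on the x axis and CPM on a log y axis, WT in blue and Het in orange. Het libraries lie mostly above WT for Ugt2b38 and Mup11 along the run of numbers and overlap WT more for Hspa5 and Ifit1, and 2 WT libraries have far lower Mup11 than the rest.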

How the data were processed

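Messenger RNA was measured in 30 WT and 30 Het liver libraries. For comparison, 60 libraries each of Fat4 kidney, heart and lung and 59 of Dchs1 liver were used. Per the labels' protocols, poly(A) RNA was made into strand-specific libraries, for which 2 different read lengths are named. Tools named in the submitters' processing notes are bcl2fastq 2.17 and FastQC, with build GRCm38. Neither an aligner nor a gene counter is given in the sources used here. Per gene, the authors deposited estimated counts, of which 14% were not whole over the 60 libraries. TPM, which keep no depth, were deposited beside them.

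After rounding, counts were tested by quasi-likelihood F test in edgeR 4.0.16 (R 4.3.3), with TMM scaling, filterByExpr at a minimum count of 10 and total of 15, and Benjamini-Hochberg adjustment over all genes tested at 0.05. A standard error is the log2 fold change without sign divided by the root of F, and intervals use 1.96 SE. Interactions used the same test on both pairs of groups. RefSeq (GRCm38.p6) gave symbols for 24375 of 24475 identifiers, and promoter sequences. Of 825 entries in 56 gene lists 818 matched. Lists were described by counts and medians without a set test. The members and lists were chosen with earlier results of these data known. Scripts were tested on simulated data.

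Genes named are Fat4, Dchs1, Tcf24, Moxd1, Ugt2b38 and Cyp2c68. From called genes averaging 1 CPM or more came the 10 of smallest p, 8 largest rises and 8 largest falls. To these were added up to 4 members of each list with a call, the 5 strongest genes of each interaction and called genes within 10 Mb of Fat4. List members beyond these illustrate the counts and were chosen after their values were seen. No 2 libraries of a group agreed within sampling noise (lowest chi-square per gene 12.1). Alternatives were DESeq2 1.42.0 and its size factors, other filters, and limma 3.58.1 on log2(TPM + 1) and log2(TPM + 0.1) for genes that reached 1 TPM in 20 libraries. Further fits took library number as a covariate, kept the longest run of numbers, left out the outlying libraries or each library in turn (for list counts added after seeing the data), used 5 surrogate variables (sva 3.50.0) or took all 8 groups.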

Additional observations from a re-analysis of the deposited data

Results flagged for a closer look

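Differences between the effect in Fat4 liver and that in another comparison passed the interaction test in the genes below, the 5 strongest of each test (edgeR, adjusted over all genes). Values are the log2 fold change in Fat4 liver minus that in the other comparison.

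Against Fat4 kidney, Tcf24 stood at -2.93 and Ndrg1, a gene induced by low oxygen, at -0.69, while Ugt2b38 stood at 1.40, Fam107a at 2.2 and Ppp1r9a at 0.62. Against Fat4 heart, the difference was -2.76 for Tcf24, 3.85 for Moxd1, -0.51 for Rtn4, -0.40 for the lipid transporter Abca3 and 0.55 for the isomerase Pdia4. Tcf24 was too low to test in heart alone, so its difference rests on the fall in liver and does not show what it does in heart. Against Fat4 lung it was -2.93 for Tcf24, 3.52 for Moxd1, 0.49 for Ppp1r9a, -0.57 for Ndrg1 and -0.93 for the imprinted non-coding RNA Rian. Ndrg1 and Abca3 fell in liver of both lines, by 0.56 and 0.30 in Fat4 and 0.59 and 0.32 in Dchs1 heterozygotes.

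Against Dchs1 liver the strongest differences were 0.78 for Rassf3, 1.43 for the short-chain dehydrogenase Sdr9c7, 0.60 for the calcium sensor Stim1, -0.51 for the amino acid transporter subunit Slc3a2 and -0.42 for the lysosomal enzyme Hexa. In Dchs1 liver Rassf3, Sdr9c7 and Stim1 fell, by 0.57, 1.61 and 0.61, and Slc3a2 and Hexa rose, by 0.36 and 0.35. In Fat4 liver Rassf3 rose by 0.23 (a call lost with limma on TPM) and Slc3a2 fell by 0.13 (lost in the fit over all 8 groups), and Sdr9c7, Stim1 and Hexa did not pass.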

How the results depend on the processing

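The number of genes called moved by over 1.5 times without the 6 outlying libraries (1429), with 5 surrogate variables (1687) and with all 8 groups of the line in 1 fit (1721), and the cause was not tested. Of the 892 genes, 812, 849 and 830 were called there too. DESeq2 gave 1030 calls, its size factors 888, no filter 777 and limma on TPM 766 (13.4% higher, against 50.9%) or 760. Leaving out each library gave 761 to 1124 calls, 111 to 149 called list members, and for each list 15 to 17 (type I interferon), 9 to 11 (GTPases), 13 to 14 (unfolded protein response), 13 to 16 (major urinary proteins), 6 to 7 (Cyp2c), 7 to 8 (male-biased), 3 to 8 (glutathione S-transferases) and 4 to 6 (carboxylesterases). Of 104 genes set by the naming rule, 0 of the called ones reversed under these alternatives or without any 1 library, while Stim1, which was not called (0.0062), went below 0 in some. At most 23 lost a call, with limma on TPM, which tested 97 of them. No paired analysis was possible because the labels name neither the litter nor the animal of a library. Depth limits genes near or under 1 CPM, such as Fat4 and Moxd1, the latter with no read in 8 WT libraries.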
